A study of Mus musculus with 16 samples.

Results

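The genes described here are 9 components of insulin receptor signalling: Insr, Irs1, Irs2, Pik3r1, Akt1, Akt2, Foxo1, Foxo3 and Grb14. They were taken by gene symbol from the liver and the white adipose tissue tables of a mouse RNA-seq series, which list 22322 genes each. All 9 were found in both tables and all 9 passed the filter on low counts in both tissues. The series measured mRNA in DIO (diet-induced obese) mice that received halofuginone or vehicle by intraperitoneal injection every 2 days, and tissue was taken after 8 weeks. Halofuginone is a synthetic derivative of a plant alkaloid and inhibits prolyl-tRNA synthetase. The treated group, labelled H100, received 100 μg/kg, and the control group, labelled HFD, received vehicle. Liver is represented by 5 vehicle and 5 treated libraries, and white adipose tissue (fat below) by 3 of each. Both groups were obese mice of the same model, so no lean or uninjected mice enter these comparisons. Strain, sex, age, fat depot and any shared animals between liver and fat are not given in the sources used here.

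Insulin binds the receptor encoded by Insr, a tyrosine kinase that phosphorylates the adaptor proteins IRS1 and IRS2. These recruit PI 3-kinase, whose regulatory subunit p85α is the main product of Pik3r1, and the lipid it makes brings the kinases AKT1 and AKT2 to the membrane. AKT phosphorylates FOXO1 and FOXO3, transcription factors that then leave the nucleus, so that genes of gluconeogenesis and fasting are less transcribed. GRB14 is an adaptor that binds the active receptor and inhibits its kinase. IRS2 and AKT2 carry much of the metabolic action of insulin in liver, and transcription of Irs2 is itself raised by FOXO1 in fasting and repressed by insulin. Most of the pathway is regulated by phosphorylation, which mRNA levels do not report.

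Libraries held 20309956 to 31980683 counts in liver and 17070614 to 21387799 in fat. One treated liver, replicate 1, lay beside the vehicle livers on the first principal component (−23.3, vehicle −36.0 to −28.3, the other 4 treated livers 32.4 to 58.0). On the first component in fat, computed separately, vehicle libraries 1 to 3 were at 9.62, −65.7 and −16.2 and treated libraries 1 to 3 at 37.9, 60.0 and −25.5. The fat groups thus overlapped there: vehicle replicate 2 was lowest and treated replicate 3 lay inside the vehicle range. One vehicle fat library, replicate 3, stood apart in cell type markers, with a summed level of 6 adipocyte genes of 11390 CPM (counts relative to library size) against 18210 to 21920 CPM in the other 5. The summed level of 6 macrophage genes there was 8703 CPM, against 4030 and 4804 CPM in the other vehicle fat libraries and 2703 to 3013 CPM under halofuginone. Several results below are also given without treated liver replicate 1 or without vehicle fat replicate 3. Both were singled out from these same data, so p-values from fits without them are a description only. Leaving out treated liver replicate 1, which lay beside the vehicle livers, raised the share of genes called in liver from 23.2% to 42.8%. Hepatocyte genes summed to 120800 to 140800 CPM in vehicle livers and 49350 to 113200 CPM in treated livers. Of the 6, 1 was called lower and 0 higher, beside 10.5% and 12.7% of all genes tested in liver. Liver and fat each expressed the defining genes of their labelled tissue. In bulk tissue, fewer cells of a type and less RNA per cell cannot be told apart. The part of these marker levels in the results below was not tested.

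In liver, 2 of the 9 genes rose under halofuginone, Irs2 and Akt1, and 0 fell. A gene was called when its adjusted p in edgeR's quasi-likelihood test over all 12311 genes tested, with Benjamini-Hochberg adjustment, was under 0.05. The background of that rule was 23.2% of genes, so a count of 2 of 9 was close to the share among all genes. The other 7 had log2 fold changes between −0.24 and 0.16, and the median over the 9 was −0.08, beside 0.02 over all genes tested. The range of the treated livers was apart from that of the vehicle livers in 1 of the 9, Akt1, which was higher. Among all genes 5.13% were higher and 6.55% lower without overlap, 11.7% in total.

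The receptor gene Insr (ENSMUSG00000005534) was at 129, 130, 113, 119 and 121 CPM in vehicle livers 1 to 5. Treated livers 1 to 5 had 123, 137, 106, 105 and 108 CPM of Insr. The ranges overlapped, although 3 of the 5 treated livers lay below every vehicle liver. Its log2 fold change was −0.08 (SE 0.101, 95% interval −0.30 to 0.15, edgeR adjusted p 0.608), and 0.082 when libraries were scaled by total count alone.

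Irs1 (ENSMUSG00000055980), the adaptor best known for insulin action in muscle and fat, was at 10.5, 10.9, 9.04, 6.20 and 10.5 CPM in vehicle livers. In treated livers it was at 13.1, 7.23, 8.34, 7.87 and 4.88 CPM. Treated replicate 1 held the highest and replicate 5 the lowest value of all 10 livers. Its log2 fold change was −0.19 (SE 0.237, edgeR adjusted p 0.588), and −0.43 without treated replicate 1 (edgeR adjusted p 0.0989).

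Irs2 (ENSMUSG00000038894), an adaptor central to insulin action in liver, was at 21.6, 25.2, 21.7, 14.1 and 15.6 CPM in vehicle livers. Treated livers had 29.9, 25.4, 23.8, 29.8 and 27.3 CPM. Of the 5 treated livers, 4 exceeded every vehicle liver and replicate 3 fell just below vehicle replicate 2, so the groups overlapped by 1 library. The mean was 27.2 ± 2.70 CPM under halofuginone and 19.6 ± 4.64 CPM in vehicle (SD, n = 5 each). Irs2 rose 1.39-fold, or 0.47 on the log2 scale (SE 0.155, 95% interval 0.14 to 0.81, edgeR adjusted p 0.0463). The call was close to the threshold: it was made in 1 of the 10 fits that each left out a library (without vehicle replicate 2), with log2 fold changes of 0.37 to 0.56 and edgeR adjusted p-values of 0.0443 to 0.112. Without treated replicate 1 the log2 fold change was 0.42 (adjusted p 0.064).

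The sequence upstream of Irs2 is shown because it differs from that of Irs1 in the layout of elements tied to insulin and FOXO control, and that of Igfbp1 because it is the textbook case of such control. Capitals mark matches to TGTTTTG, the core of the insulin response element (read on both strands, CAAAACA on the other), and to CACGTG, an E-box that reads the same on both strands. Each run is the 250 bases before the annotated start in RefSeq on GRCm38.p6, 5′ to 3′ on the strand of the gene. That build is older than the mm39 named in the submitters' processing notes. The runs are chr1:82291440-82291689 on the minus strand for Irs1, chr8:11008930-11009179 on the minus strand for Irs2 and chr11:7197537-7197786 on the plus strand for Igfbp1.
Irs1: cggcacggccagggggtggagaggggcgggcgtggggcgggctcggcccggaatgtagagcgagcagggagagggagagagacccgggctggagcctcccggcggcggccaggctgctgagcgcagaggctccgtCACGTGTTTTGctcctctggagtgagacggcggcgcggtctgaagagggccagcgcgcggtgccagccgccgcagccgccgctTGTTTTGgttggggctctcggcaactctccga
Irs2: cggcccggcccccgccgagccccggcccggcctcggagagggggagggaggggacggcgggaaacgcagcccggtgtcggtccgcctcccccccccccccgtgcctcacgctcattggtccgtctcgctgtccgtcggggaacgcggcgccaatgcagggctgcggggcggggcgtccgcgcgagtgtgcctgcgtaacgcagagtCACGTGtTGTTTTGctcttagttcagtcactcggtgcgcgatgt
Igfbp1: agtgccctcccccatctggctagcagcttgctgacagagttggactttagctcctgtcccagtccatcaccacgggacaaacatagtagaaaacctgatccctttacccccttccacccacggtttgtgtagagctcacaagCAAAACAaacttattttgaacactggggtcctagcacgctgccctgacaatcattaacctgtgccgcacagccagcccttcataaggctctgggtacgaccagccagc
The Irs1 window held TGTTTTG 111 and 32 bases before the start, and its E-box 115 bases before the start shares letters with the first of them. The Irs2 window held the E-box 44 bases and TGTTTTG 37 bases before the start, separated by a single base. In the Igfbp1 window the element lay on the opposite strand, 108 bases before the start.

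Of the 9 genes, 8 had a window in the RefSeq table, and Insr had none. TGTTTTG was found for Irs1 and Irs2, as in 5.56% of the 32851 windows of all genes, and CACGTG for the same 2 genes, as in 6.02% of windows. TGTTTAC, a FOXO site, was found upstream of Akt1 alone among the 8, 161 bases before the start in 1 of its windows, and in 3.17% of all windows. These are matches of letters and say nothing of which factor is bound. Some genes, such as Akt2, have more than 1 window, so a count of genes and a share of windows are not the same measure.

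Pik3r1 (ENSMUSG00000041417) was at 86.5, 104, 109, 75.7 and 74.1 CPM in vehicle livers and at 57.0, 71.4, 90.6, 78.0 and 85.6 CPM in treated livers. The ranges overlapped widely, and 2 treated livers, replicates 1 and 2, were lowest of all. On the log2 scale the difference was −0.23 (SE 0.151, edgeR adjusted p 0.279).

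Akt1 (ENSMUSG00000001729), the more widely expressed of the 2 kinases, was at 49.0, 54.1, 53.0, 54.3 and 51.5 CPM in vehicle livers. In treated livers it was at 64.1, 71.4, 62.8, 62.9 and 56.6 CPM. Every treated liver, replicate 1 included, lay above every vehicle liver, by a narrow margin in replicate 5. Means were 63.5 ± 5.27 CPM under halofuginone and 52.4 ± 2.18 CPM in vehicle (SD, n = 5 each). Akt1 rose 1.21-fold, or 0.28 on the log2 scale (SE 0.0816, 95% interval 0.10 to 0.46, edgeR adjusted p 0.0322). The call was kept in 2 of the 10 fits that left out a library, without treated replicate 1 or 5, and the log2 fold change ran from 0.22 to 0.32 over those fits (edgeR adjusted p 0.0226 to 0.0736).

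Akt2 (ENSMUSG00000004056), the isoform most tied to glucose handling, was at 92.7, 109, 102, 105 and 104 CPM in vehicle livers and at 101, 114, 112, 111 and 118 CPM in treated livers. In 4 of 5 treated livers it was above every vehicle liver, and treated replicate 1 was inside the vehicle range. Its log2 fold change was 0.12 (SE 0.0833, 95% interval −0.07 to 0.30, edgeR adjusted p 0.321).

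Foxo1 (ENSMUSG00000044167), which drives gluconeogenic genes in the fasted liver, was at 45.5, 47.8, 44.1, 41.6 and 50.2 CPM in vehicle livers. Treated livers had 48.3, 31.7, 36.6, 41.8 and 36.3 CPM. In 3 treated livers, replicates 2, 3 and 5, it was below every vehicle liver, and replicate 1 was near the top of the vehicle range. With all 10 livers the log2 fold change was −0.24 (SE 0.114, edgeR adjusted p 0.145). Without treated replicate 1 Foxo1 was called lower, at −0.35 (SE 0.094, edgeR adjusted p 0.0124), in a fit that called 42.8% of all genes tested.

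Foxo3 (ENSMUSG00000048756), a second FOXO factor with roles in stress resistance and muscle wasting, was at 34.6, 46.5, 37.5, 32.2 and 38.8 CPM in vehicle livers and at 39.1, 23.6, 30.0, 43.2 and 33.6 CPM in treated livers. The groups overlapped, with treated replicates 2 and 3 lowest, and the log2 fold change was −0.16 (SE 0.159, edgeR adjusted p 0.478).

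The receptor inhibitor Grb14 (ENSMUSG00000026888) was at 39.1, 40.9, 44.2, 39.3 and 37.5 CPM in vehicle livers. Treated livers had 41.6, 33.9, 46.3, 55.1 and 47.3 CPM. Replicate 2 was below and replicates 3 to 5 above the vehicle range. Grb14 had a log2 fold change of 0.16 (SE 0.12, 95% interval −0.10 to 0.42, edgeR adjusted p 0.348).

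**Figure D1:**
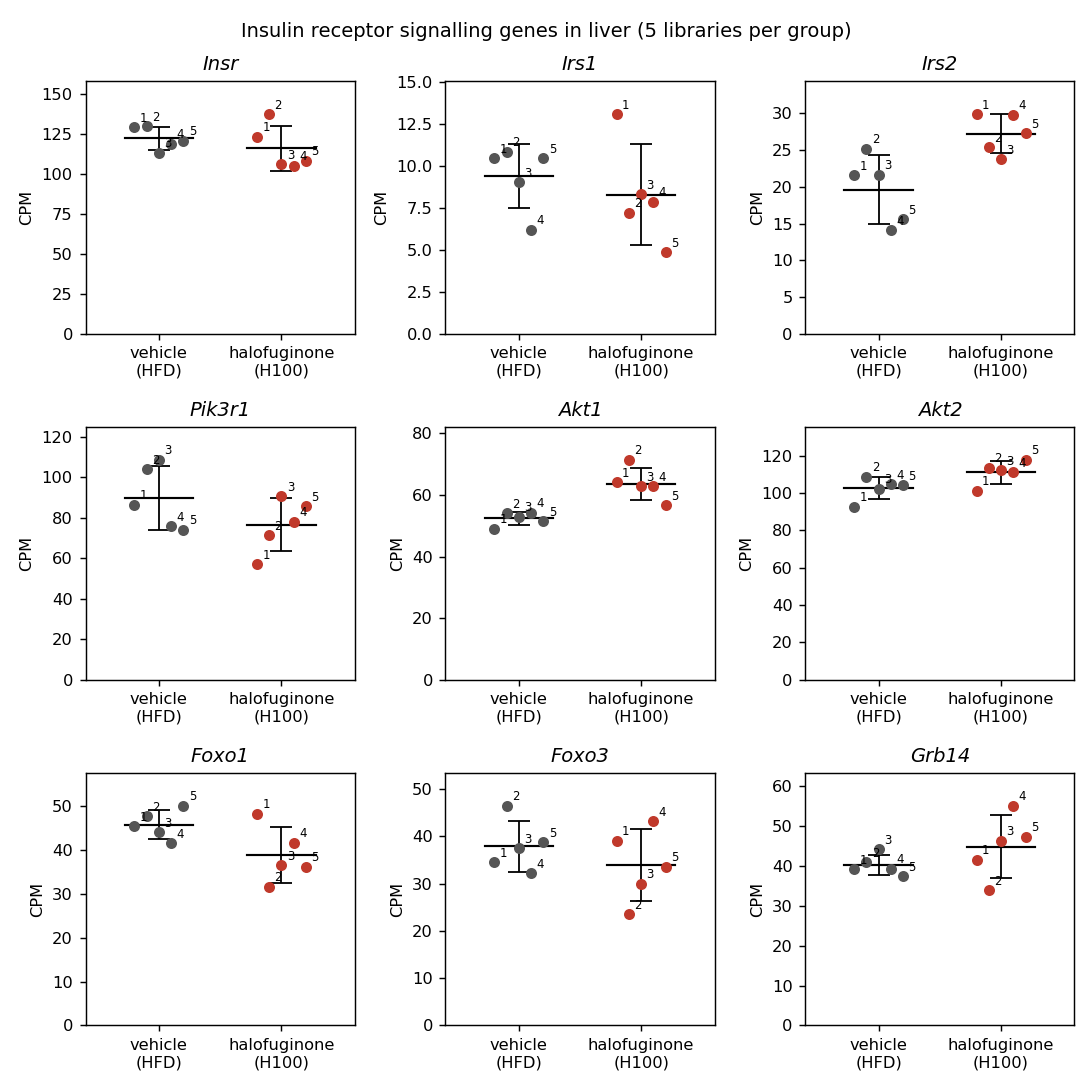
CPM of each of the 9 genes in the 10 liver libraries (points, numbered by replicate), with the group mean (line) and SD (bars), on axes that start at 0. Akt1 shows no overlap between the groups (49.0 to 54.3 against 56.6 to 71.4 CPM), and in Irs2 a single treated liver lies below the highest vehicle liver.

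In fat, 0 of the 9 genes were called by edgeR, where 0% of the 14030 genes tested were called (0 genes). An unadjusted p under 0.05 was found for 4 of the 9, beside 13.4% of all genes: Irs2 and Insr were higher and Grb14 and Foxo3 were lower under halofuginone. In the same 4 genes the 2 groups did not overlap, beside 20.6% of all genes (10.2% higher, 10.4% lower). DESeq2 called 1 of the 9, Irs2, beside 4.72% of the genes to which it gave an adjusted p, and 1 edgeR fit of all 16 libraries also called Irs2, beside 2.25%. The median log2 fold change of the 9 was 0.06, and 0.01 over all genes tested.

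Insr was at 137, 109 and 88.4 CPM in vehicle fat libraries 1 to 3 and at 212, 150 and 161 CPM in treated libraries 1 to 3. All 3 treated libraries were above all 3 vehicle libraries. The means were 174 ± 33.1 and 112 ± 24.5 CPM (SD, n = 3 each). On the log2 scale the difference was 0.64 (SE 0.224, 95% interval 0.11 to 1.17, unadjusted p 0.0241, edgeR adjusted p 0.304). Without vehicle replicate 3 it was 0.50 (edgeR adjusted p 0.424).

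In fat, Irs1 was at 17.2, 18.6 and 11.2 CPM in vehicle and at 24.2, 12.1 and 17.1 CPM under halofuginone, with overlapping groups. Its log2 fold change was 0.18 (SE 0.308, edgeR adjusted p 0.841), and −0.01 without vehicle replicate 3.

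Irs2 was at 79.0, 95.2 and 55.3 CPM in vehicle fat and at 198, 181 and 126 CPM in treated fat. The lowest treated library was well above the highest vehicle library. Means were 168 ± 37.7 CPM under halofuginone and 76.5 ± 20.1 CPM in vehicle (SD, n = 3 each), or 2.2-fold. The log2 fold change of Irs2 was 1.14 (SE 0.264, 95% interval 0.51 to 1.77, unadjusted p 0.00364, edgeR adjusted p 0.179). It was 0.95 without vehicle replicate 3 (edgeR adjusted p 0.244), and between 0.95 and 1.33 over the 6 fits that left out a library. The adjusted p of Irs2 was 0.00423 with DESeq2 and 0.024 in the edgeR fit of all 16 libraries, which takes the spread from both tissues. Over the alternatives that fitted fat alone with edgeR or limma, it was not called.

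Pik3r1 was at 134, 124 and 171 CPM in vehicle fat and at 225, 155 and 149 CPM in treated fat. Treated replicate 1 was above every vehicle library, and the other 2 lay inside the vehicle range. On the log2 scale Pik3r1 differed by 0.30 (SE 0.223, edgeR adjusted p 0.61).

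Akt1 was at 189, 210 and 242 CPM in vehicle fat and at 211, 237 and 212 CPM in treated fat, so that all treated libraries lay inside the vehicle range. Its log2 fold change was 0.04 (SE 0.158, 95% interval −0.33 to 0.41). Akt2 was at 289, 376 and 213 CPM in vehicle fat and at 180, 244 and 335 CPM in treated fat. Each group spanned most of the range of the other, and the log2 fold change was −0.21 (SE 0.298, 95% interval −0.91 to 0.50).

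Foxo1 was at 108, 112 and 51.0 CPM in vehicle fat and at 92.8, 86.7 and 103 CPM in treated fat. Vehicle replicate 3, the library with low adipocyte markers, was far below the other 5. The log2 fold change of Foxo1 was 0.06 (SE 0.301) with that library and −0.22 (SE 0.154, edgeR adjusted p 0.589) without it. Foxo3 was at 100, 104 and 86.0 CPM in vehicle fat and at 70.0, 83.7 and 72.2 CPM in treated fat. The groups did not overlap but came close, since the highest treated library was just under vehicle replicate 3. Its log2 fold change was −0.36 (SE 0.152, unadjusted p 0.0497, edgeR adjusted p 0.372), and −0.44 without vehicle replicate 3.

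Grb14 was at 32.5, 41.7 and 45.8 CPM in vehicle fat and at 32.3, 19.0 and 12.1 CPM in treated fat. Treated replicate 1 was nearly level with vehicle replicate 1, and on the deposited FPKM scale (fragments adjusted for gene length and library depth) these libraries changed order, at 16.7 and 16.1 FPKM. Means were 21.1 ± 10.3 CPM under halofuginone and 40.0 ± 6.83 CPM in vehicle (SD, n = 3 each). The log2 fold change was −0.92 (SE 0.356, 95% interval −1.77 to −0.08, unadjusted p 0.0364, edgeR adjusted p 0.34). It was −0.81 without vehicle replicate 3 and ran from −1.36 to −0.61 over the 6 fits that left out a library.

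**Figure D2:**
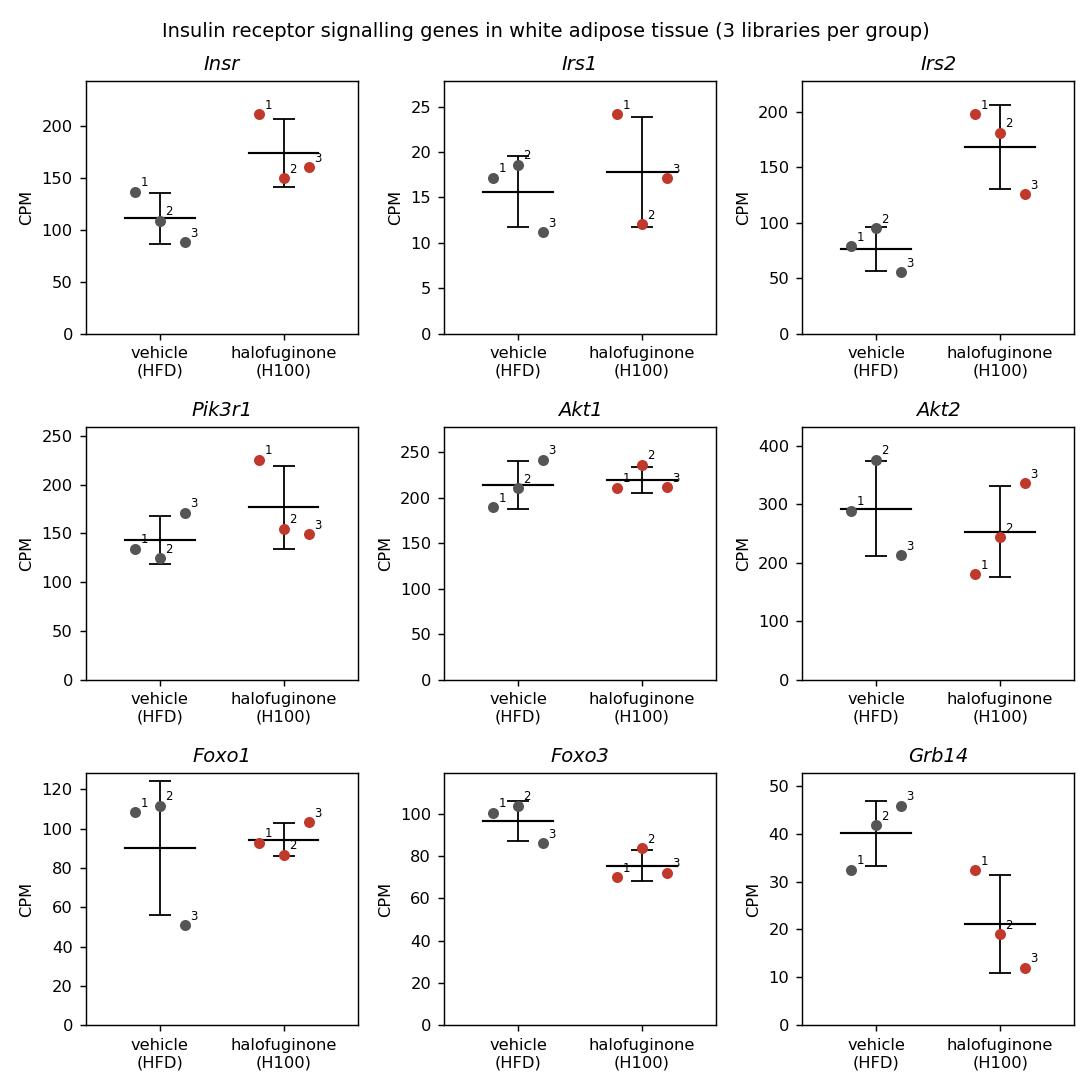
CPM of each of the 9 genes in the 6 fat libraries (points, numbered by replicate), with the group mean (line) and SD (bars), on axes that start at 0. The groups do not overlap for Insr, Irs2, Foxo3 and Grb14, and vehicle replicate 3 is the lowest library for Foxo1 (51.0 CPM).

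A single fit of all 16 libraries tested whether the drug effect differed between the tissues, as the log2 fold change in fat minus that in liver. By edgeR 0 of the 9 genes were called, beside 0.949% of 14853 genes tested, and 3 of 9 had an unadjusted p under 0.05, beside 15.7%. DESeq2 called 2 of the 9, Insr and Grb14, beside 4.86% of the genes to which it gave an adjusted p. Insr had a difference of 0.70 (SE 0.228, 95% interval 0.22 to 1.18, edgeR adjusted p 0.146, DESeq2 adjusted p 0.0477). For Grb14 the difference was −1.098 (SE 0.329, 95% interval −1.80 to −0.40, edgeR adjusted p 0.117, DESeq2 adjusted p 0.0484). Grb14 was called by edgeR when treated fat replicate 1 was left out, with a difference of −1.55 (edgeR adjusted p 0.014), and in none of the other 15 fits that left out a library. Irs2 differed by 0.64 (SE 0.298, unadjusted p 0.0487, edgeR adjusted p 0.314), with positive log2 fold changes in both tissues. The remaining 6 genes had differences between −0.35 (Akt2) and 0.52 (Pik3r1), with edgeR adjusted p-values of 0.377 to 0.746.

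**Figure D3:**
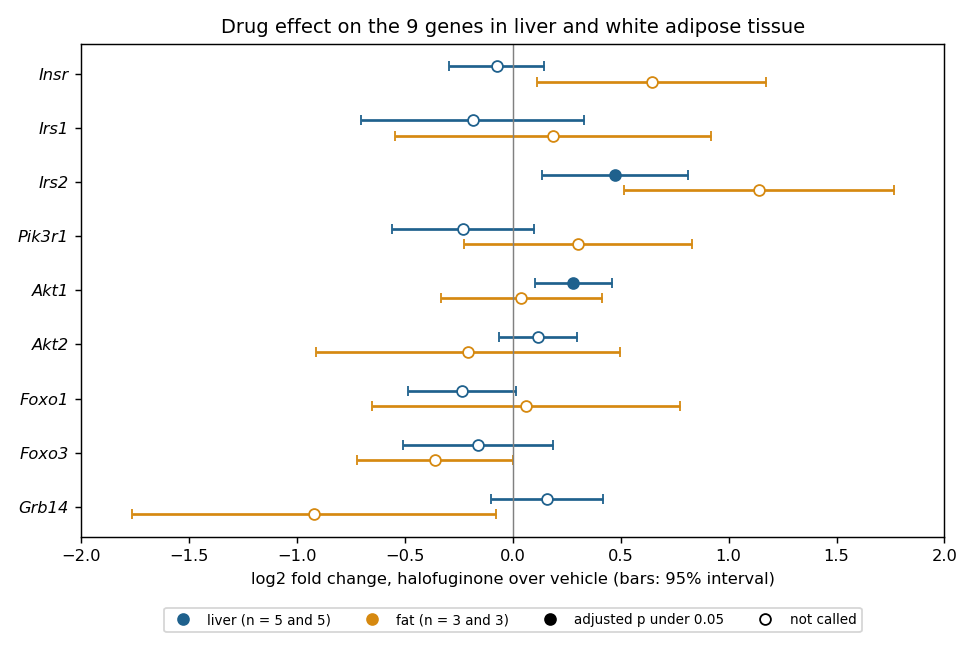
Log2 fold change of halofuginone over vehicle for the 9 genes in liver (n = 5 and 5) and in fat (n = 3 and 3), with 95% intervals from the edgeR fits; filled points passed an adjusted p of 0.05. The interval lies above 0 for Irs2 in both tissues, Akt1 in liver and Insr in fat, and below 0 for Foxo3 and Grb14 in fat, and the fat intervals are wider than the liver intervals for all 9 genes.

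Levels of the 9 genes were ordered on the FPKM scale, which divides by gene length, by the median of each group. In vehicle livers Akt2 was highest (median 35.1 FPKM) and above the next gene in all libraries. Grb14 (22.3), Insr (20.8), Akt1 (18.8) and Pik3r1 (16.1 FPKM) followed with ranges that overlapped from one to the next. Foxo3 (5.42) and Foxo1 (4.98 FPKM) overlapped each other, Irs2 (3.17 FPKM) was below both, and Irs1 (1.08 FPKM) was lowest. The order in treated livers differed in Akt1 (23.6 FPKM) and Insr alone, which changed places and overlapped in both groups. Irs2 (4.46 FPKM) overlapped Foxo1 (4.79 FPKM) in treated livers.

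In vehicle fat Akt2 (98.8 FPKM) and Akt1 (79.9 FPKM) overlapped at the top, well above Grb14 (22.0 FPKM). Pik3r1 (18.6), Insr (16.3), Foxo3 (14.4), Foxo1 (12.2) and Irs2 (12.2 FPKM) came next, and Pik3r1 was above Insr in all libraries while the other 4 overlapped from one to the next. Irs1 (1.83 FPKM) was again lowest. Under halofuginone Irs2 stood at rank 3 (28.8 FPKM) in place of rank 8, and Grb14 at rank 8 (9.87 FPKM) in place of rank 3. Irs2 overlapped Insr (23.4 FPKM) there, and Grb14 overlapped Foxo1 (10.97 FPKM).

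Ratios of related genes within a library do not depend on the scaling of the libraries. The FPKM ratio of Irs2 to Irs1 was 3.00, 3.36, 3.48, 3.30 and 2.16 in vehicle livers and 3.30, 5.07, 4.13, 5.45 and 8.07 in treated livers. Treated replicate 1 lay inside the vehicle range and the other 4 above it. In fat the ratio was 6.67, 7.42 and 7.15 in vehicle and 11.8, 21.7 and 10.6 under halofuginone, with no overlap. Irs2 thus exceeded Irs1 in all 16 libraries. Irs2 FPKM alone did not overlap between the liver groups (2.21 to 3.66 against 4.36 to 4.69 FPKM), unlike its CPM.

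The FPKM ratio of Akt2 to Akt1 was 1.78 to 1.88 in vehicle livers. In treated livers it was 1.499, 1.43, 1.63, 1.62 and 1.96, so that 4 lay below the vehicle range and replicate 5 above it. In fat the ratio ran from 0.80 to 1.67 in vehicle and from 0.77 to 1.47 under halofuginone, with overlap. Foxo1 to Foxo3 was 0.76 to 1.00 in vehicle and 0.73 to 1.02 in treated livers. In fat that ratio was 0.85, 0.84 and 0.46 in vehicle and 1.03, 0.80 and 1.098 under halofuginone, and vehicle replicate 3 was the lowest of all 16 libraries.

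**Figure D4:**
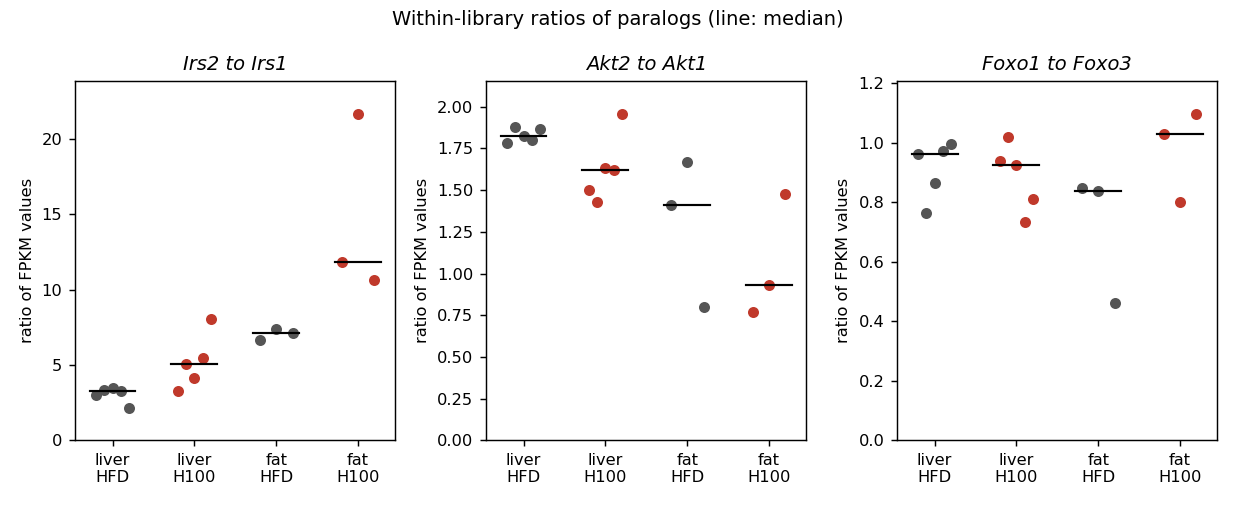
Ratio of FPKM values within each library for Irs2 to Irs1, Akt2 to Akt1 and Foxo1 to Foxo3 (points: libraries in order of replicate number; line: group median; axes start at 0). Irs2 to Irs1 separates the fat groups (6.67 to 7.42 against 10.6 to 21.7), and the other ratios overlap in fat.

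The genes most like Irs2 over the 10 livers, by Pearson's r of log2 CPM among the 8816 genes that averaged 5 CPM or more, were Ubl3 (r = 0.913), Gramd1a (0.892) and Rictor (0.890). Those most like Akt1 were Steap2 (0.970), Ywhaq (0.967) and Svil (0.958). The 10 livers share the difference between the groups and each library's scaling, so these values are a description. Rictor, a subunit of mTOR complex 2, which phosphorylates AKT, was not called in liver (log2 fold change 0.14, SE 0.119, edgeR adjusted p 0.395). Ubl3, Gramd1a and Ywhaq were not called there either (0.21, 0.26 and 0.17, edgeR adjusted p 0.0873, 0.198 and 0.11). Steap2 and Svil were called higher in liver (0.73 and 0.75, edgeR adjusted p 0.01 and 0.0168).

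Around the 9 genes, 78 other genes of the pathway were followed in 7 lists. In liver 71 of them were tested, and 5 were called higher and 3 lower, beside 12.7% and 10.5% of all genes. Of the genes next to PI 3-kinase and AKT, Mapkap1 (0.34, edgeR adjusted p 0.0395) was higher and Mlst8 (−0.42, 0.0225) lower, both subunits of mTOR complexes. The GTPase gene Rheb (0.36, 0.0315), an activator of mTORC1 under the control of AKT, was higher. Mapkap1 was called in 1 of 10 fits that left out a library (without treated replicate 1), Rheb in 2 (without vehicle replicate 3 or treated replicate 1), and Mlst8 in 6 (not without vehicle replicate 1 or 4 or treated replicate 3 or 5). Among 17 tested brakes on the pathway, Trib3, a pseudokinase reported to bind AKT (5.78, edgeR adjusted p 0.00317), and Phlpp2, a phosphatase of AKT (0.66, 0.018), were higher. Trib3 was at 5.96 CPM in treated liver 1, at 210.5 to 356.6 CPM in the other treated livers and at 2.76 to 5.73 CPM in vehicle livers. Without treated replicate 1 its log2 fold change was 6.07 (edgeR adjusted p 1.77e-07). None of the 7 tested receptors and adaptors, and neither of the 2 genes of insulin clearance, was called with all 10 livers. Without treated replicate 1, in a fit that called 42.8% of all genes, Ceacam1, which promotes insulin clearance, was called higher (0.40, edgeR adjusted p 0.0109). In that fit Pik3r3, a further PI 3-kinase subunit, was also called higher (0.70, 0.0364), and Tsc2, an inhibitor of mTORC1, was called lower (−0.46, 0.00205).

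Genes known to be induced by FOXO1 or by insulin were followed as 2 lists. What changed their levels here was not tested. Of 10 FOXO1-induced genes tested in liver, Igfbp1 rose and Ppargc1a fell, beside 12.7% of all genes called higher and 10.5% lower, so these counts were close to the background. Igfbp1, which encodes a secreted IGF-binding protein, was at 43.4, 35.8, 63.3, 14.6 and 14.7 CPM in vehicle livers and at 37.5, 198, 345, 412 and 549 CPM in treated livers. Treated replicate 1 was inside the vehicle range and the other 4 above it, and the rise was 3.17 on the log2 scale (SE 0.642, edgeR adjusted p 0.0101). Without treated replicate 1 the rise was 3.43 (edgeR adjusted p 0.00026). The gluconeogenic genes G6pc (0.29, SE 0.258) and Pck1 (0.25, SE 0.208) were not called (edgeR adjusted p 0.435 and 0.398). Ppargc1a, a coactivator of FOXO1, was called at −0.92 (SE 0.305, edgeR adjusted p 0.0492), and over the fits that left out a library only without treated replicate 1 (−1.34, edgeR adjusted p 0.00033). In that fit, which called 42.8% of all genes, Sesn3 was also called lower (−0.57, edgeR adjusted p 0.00739) and Cdkn1b, a cell cycle inhibitor, higher (0.28, 0.0276).

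Of 8 insulin-induced genes tested in liver, 1 fell and 0 rose, near the same background shares of 10.5% and 12.7%. Scd1, a fatty acid desaturase, was at 5089, 7464, 2118, 8696 and 5008 CPM in vehicle livers and at 1283, 1114, 1790, 2653 and 1657 CPM in treated livers. Vehicle replicate 3 lay inside the treated range and the other 4 vehicle livers above it. Scd1 fell by 1.74 on the log2 scale (SE 0.363, edgeR adjusted p 0.0105), whereas Srebf1 (−0.41), Fasn (−0.39), Acly (0.12), Acaca (−0.03), Elovl6 (0.24), Me1 (0.53) and Thrsp (−1.26) were not called. In the fit without treated replicate 1, which called 42.8% of all genes, Me1, the malic enzyme gene, was called higher (0.66, edgeR adjusted p 0.00316). The lists had median log2 fold changes of 0.18 (FOXO1-induced) and −0.21 (insulin-induced), beside 0.02 over all genes, and the FOXO1-induced median was −0.09 without treated replicate 1.

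In fat, edgeR called 0 of 73 tested pathway genes, and 13 had an unadjusted p under 0.05, beside 13.4% of all genes. In 8 of the 73 every treated library was above, and in 9 below, every vehicle library, beside 10.2% and 10.4% of all genes. Gys2, the liver form of glycogen synthase, was at 12.5, 10.04 and 7.62 CPM in vehicle fat and at 1.36, 0.42 and 1.16 CPM in treated fat (log2 fold change −3.36, SE 0.478, edgeR adjusted p 0.0954). Inppl1, which encodes the lipid phosphatase SHIP2 that opposes PI 3-kinase, was at 82.3, 90.1 and 99.4 CPM in vehicle and at 63.6, 58.3 and 66.0 CPM in treated fat (−0.53, SE 0.143, adjusted p 0.22). Both were lower in all treated libraries. Trib3 had a log2 fold change of 3.45, and Fasn and Pnpla3, lipogenic genes, of −2.08 and −2.36 (edgeR adjusted p 0.116 to 0.191). The insulin-induced list held 3 positive and 6 negative values among its 9 genes in fat, with a median of −0.58. Scd1 (0.17), Srebf1 (0.18) and Acaca (0.18) were the positive ones. The FOXO1-induced list split into 4 positive and 4 negative values among the 8 genes tested in fat. Sesn3 was at −1.51 (edgeR adjusted p 0.129) and Fbxo32, a ubiquitin ligase gene, at 1.05 (0.312), each without overlap between the groups. Sesn3 was at most 27.29 CPM in treated and at least 47.21 CPM in vehicle fat. For Fbxo32 the groups nearly touched, with a lowest treated value of 61.33 CPM and a highest vehicle value of 60.95 CPM. Of the 78 genes, 75 were tested for a difference between fat and liver. Gys2 and Inppl1 had a drug effect that differed by edgeR, beside 0.532% of all genes called in that direction. In liver alone Gys2 was at 0.04 (SE 0.394), with treated livers widely spread (35.9 to 232.2 CPM, vehicle 130.2 to 174.2 CPM). Inppl1 in liver was at 0.31 (edgeR adjusted p 0.064), opposite in sign to fat. The difference, fat minus liver, was −3.42 for Gys2 (SE 0.7, edgeR adjusted p 0.0347, called in 4 of 16 fits that left out a library). For Inppl1 it was −0.86 (SE 0.182, edgeR adjusted p 0.0412, called in 3 of 16).

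**Figure D5:**
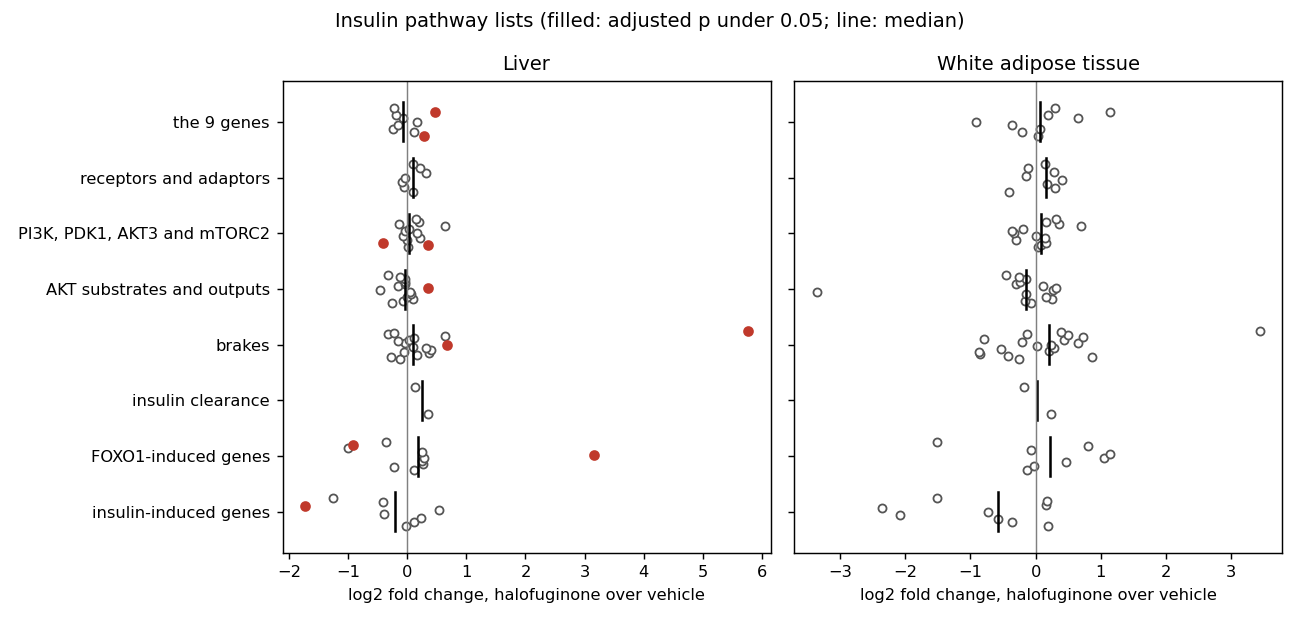
Log2 fold change of each tested gene of the 9 and of the 7 other pathway lists in liver (left) and fat (right); filled points passed an edgeR adjusted p of 0.05 and the bar is the list median. In liver 2 of the 9 genes and 8 of the other 71 are filled, in fat 0, and Trib3 is the point farthest to the right in both tissues.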

How the data were processed

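Poly(A)-selected RNA from liver and white adipose tissue was sequenced. The submitters' processing notes name fastp 0.18.0, Bowtie2 2.2.8, HISAT2, StringTie 1.3.1, RSEM and the build mm39, with no role or order. Annotation and strand are not given in the sources used here. The authors deposited 1 table per tissue with whole-number counts and FPKM per library, per the file headers. Between 1 and 31 genes per library combine a count of 0 with a positive FPKM, and the counts may be rounded estimates. Reads from near-identical or overlapping genes may have been split by the authors' counting. A gene name table gave symbols for 22267 of 22322 identifiers.

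Groups came from the sample titles. All libraries of a group differed beyond counting noise (smallest chi-square per degree of freedom 29.7 in liver, 50.5 in fat). The sources do not say that replicates are separate animals, so p-values measure only the spread between these samples. Each tissue was fitted alone in edgeR 4.0.16 (R 4.3.3): filterByExpr, TMM, glmQLFit, glmQLFTest, two-sided, Benjamini-Hochberg over all genes tested, threshold 0.05. The tissue difference came from 1 fit of all 16 libraries, taken as independent. SE is the absolute log2 fold change over the square root of F, and CPM uses TMM-scaled library sizes. DESeq2 1.42.0, limma 3.58.1 on log2(FPKM + 1) or log2(FPKM + 0.1) for genes with a mean of at least 1 FPKM, 2 other scalings, no filter, robust dispersion, a replicate block, 1 fit of all libraries and leaving out each library were alternatives. The fit was tested on simulated counts.

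The 9 genes, the lists and the tests were chosen with earlier results of these data known. One gene of a list is not reported here and was left out of its counts. Besides the 9, genes were named by a rule: those called in liver (at most 4 per direction and list), the 2 smallest p-values in fat per list, any gene of the FOXO1-induced and insulin-induced lists, and the 3 genes most correlated with each of the 9 called in liver. The 11 marker lists covered hepatocyte, adipocyte, macrophage, endothelium, stellate cell and fibroblast, cholangiocyte, skeletal muscle, lymphocyte, exocrine pancreas, pancreatic beta cell and epididymis. Replicate numbers were not taken as pairs in the main fits. Deviations of same-numbered libraries correlated at −0.156 to 0.0566 in liver and −0.57 to 0.111 in fat. With so few libraries per group, these values cannot show that no pairing existed.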

Additional observations from a re-analysis of the deposited data

Results flagged for a closer look

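Ppargc1a was at 5.71 CPM in treated liver 1 and at 1.68 to 2.82 CPM in the other 4 treated livers, a gap of 0.718 of the group's range against a limit of 0.71 for 5 samples. This was 1 of 40 groups of livers examined, of which chance passes about 2. The drug effect differed between fat and liver for Gys2 (−3.42 on the log2 scale) and Inppl1 (−0.86) by the edgeR test of the difference itself.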

How the results depend on the processing

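The 2850 genes called in liver became 1275 to 5312 when a library was left out, and the 2 of the 9 became 0 to 2. The fit that called 2, without treated replicate 1, called Akt1 and Foxo1, so that no fit with a library left out called Irs2 and Akt1 together. The count among the 9 was 1 with DESeq2 size factors or no filter (Irs2 lost, edgeR adjusted p 0.0534 and 0.0517), and 0 in 1 fit of all libraries (Irs2 0.0909, Akt1 0.0526). It stayed at 2 with DESeq2, library size alone, robust dispersion and both limma fits. In fat, 0 genes became 671 with DESeq2, 1 with no filter, 334 in 1 fit of all libraries, 13 with limma on log2(FPKM + 1) and 0 to 1 with a library left out. Of the 9 genes, 1 was called in fat by DESeq2 and in 1 fit of all libraries. For the tissue difference, 141 genes became 686 with DESeq2 and 34 to 1053 with a library left out, and 0 of the 9 became 2 and 0 to 1.

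Library size alone turned Insr in liver to 0.082; it moved the median of all genes by 0.156 and the share of higher calls from 54.7 to 76.9%. With a library left out, uncalled genes crossed 0 in fat: Irs1 ran from −0.10 to 0.43, Akt1 from −0.038 to 0.14, Akt2 from −0.45 to 0.015, Foxo1 from −0.22 to 0.24 and Ide from −0.34 to 0.024. The tissue difference of Foxo1 ran from −0.021 to 0.48. The cause was not tested.

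With a replicate block, 0 of the 9 were called in liver (Irs2 0.0765, Akt1 0.0648), 1901 genes in all, 0 in fat, and 20 for the tissue difference, where Gys2 (0.146) and Inppl1 (0.109) were lost. Of the vehicle libraries, 1 of 5 livers and 0 of 3 fat libraries deviated most like the treated library of its number. With 3 libraries per group, the 95% intervals in fat were wider than in liver for all 9 genes.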

Other observations

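Markers of other cell types were summed in both tissues. In fat, skeletal muscle genes summed to 92.5 to 174 CPM in vehicle and 52.3 to 61.8 CPM under halofuginone, and epididymis genes reached 76.3 CPM in vehicle replicate 3 and at most 5.83 CPM in the other 5 libraries. The beta cell genes Ins1, Ins2 and Iapp had 0 counts in all 16 libraries, and exocrine pancreas genes summed to 16.5 to 44.2 CPM in fat. In liver, adipocyte genes summed to 61.0 to 137 CPM in vehicle and 23.4 to 73.6 CPM under halofuginone, with Lep at 0. Treated liver 1 had the highest macrophage sum (561 CPM, the other livers 300 to 416) and lymphocyte sum (28.5 CPM, the others 9.27 to 17.3). Of 6 endothelial genes in liver, 3 were called lower and 1 higher, and of 6 stellate cell and fibroblast genes 2 were called lower and 0 higher. Of 3 adipocyte genes tested there 2 were called lower and 0 higher, and of 6 macrophage genes 0 lower and 1 higher. Among all genes tested in liver 10.5% were called lower and 12.7% higher. Hepatocyte genes summed to 1761 to 3958 CPM in vehicle fat and 2360 to 3807 CPM in treated fat. Lymphocyte genes summed to 324 CPM in vehicle fat replicate 3, to 138 and 64.7 CPM in vehicle replicates 1 and 2, and to 86.1 to 143 CPM in treated fat. Endothelial genes summed to 559 CPM in vehicle fat replicate 3, to 1210 and 1475 CPM in vehicle replicates 1 and 2, and to 1124 to 1573 CPM in treated fat. Stellate cell and fibroblast genes summed to 2411 to 3032 CPM in vehicle and 2112 to 2713 CPM in treated fat. Cholangiocyte genes were at 3.48 to 10.1 CPM in all livers and 2.18 to 58.2 CPM in all fat libraries.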
